A study of Arabidopsis thaliana with 60 samples.

Results

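The stem of Arabidopsis thaliana plants was examined 8 min into a treatment in which each plant had high light on a leaf and heat on another leaf (HL&HS). The question was where its transcript levels departed from the sum of the changes seen in plants given either stress alone. Of the 60 RNA sequencing libraries of the study, 12 entered the sum, 3 from each of 4 groups of wild-type Col stems. The groups were HL&HS at 8 min, high light alone on a leaf (HL) at 8 min, heat alone on a leaf (HS) at 8 min, and untreated plants at 0 min (control). High light was given by a lamp at 1700 µmol of photons (per square metre and second), and heat by a block held 2 cm below the leaf. All plants were bolting and had grown at 23 °C in 14 h days at 50 µmol of photons on the same scale. The stems were not treated, so their values come from tissue at a distance from the stressed leaves. The design has no untreated stem at 8 min, and the labels do not say whether the 3 libraries of a group came from separate plants, so p-values measure only the spread between these libraries.

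When a leaf is stressed, plants pass calcium, reactive oxygen and electrical signals through the vasculature to untreated organs, which then change gene expression within minutes. Heat-shock factors are transcription factors that switch on chaperones, the proteins that hold or refold damaged proteins, and in many species they also respond to reactive oxygen. Salicylic acid is a defence hormone of plants, and genes such as PR2 and PR5 are used as readouts of it.

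For each gene the departure was HL&HS minus HL minus HS plus control on the log2(normalized count + 1) scale, so a departure of 0 means that the fold changes of the single stresses multiply. A positive departure is a level above that expectation, and a negative one a level below it. The sum is symmetric in HL and HS. It is therefore unchanged by a conflict in the labels of the leaf libraries, where title and treatment tag name opposite single stresses at 8 min. The 12 libraries held 11222205 to 12932588 counted reads. The control stands apart from all other stem groups: on the first principal component of the 27 stem libraries, which carried 20.7% of the variance, the control lay between -34.49 and -33.04 and the 24 stressed libraries between -8.03 and 19.12. A departure can thus rest on the control alone. Each gene was therefore also judged by HL&HS minus HL and by HL&HS minus HS, neither of which uses the control. In bulk stem RNA, fewer cells of a type and less RNA per cell cannot be told apart.

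Of 18428 genes tested in limma at a Benjamini-Hochberg adjusted p under 0.05, 5221 (28.3%) departed from the sum, 2453 (13.3%) above it and 2768 (15%) below. At least 2-fold departures were found in 396 genes (2.15%), 245 (1.33%) above and 151 (0.819%) below. HL&HS differed from HL in 2202 genes (11.9%) and from HS in 3317 genes (18%). Both differences passed in the same direction in 964 genes, 405 higher and 559 lower under HL&HS. Of these, 547 also departed from the sum in that direction, 2.97% of the genes tested, 232 above (1.26%) and 315 below (1.71%). These 547 are called here the genes beyond both single stresses. Which direction held more of them depended on the method: edgeR gave 200 above and 150 below, and limma after rescaling within the stem gave 277 and 264. In 509 of the 547 every HL&HS library lay outside the range of all 6 single-stress libraries. Over all genes tested this pattern held in 8.34%, but the same libraries chose the 547, so these shares are not compared. Among the other departing genes, 607 above and 609 below passed 1 of the differences in the direction of the departure, and 1614 above and 1844 below passed neither in that direction.

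**Figure D1:**
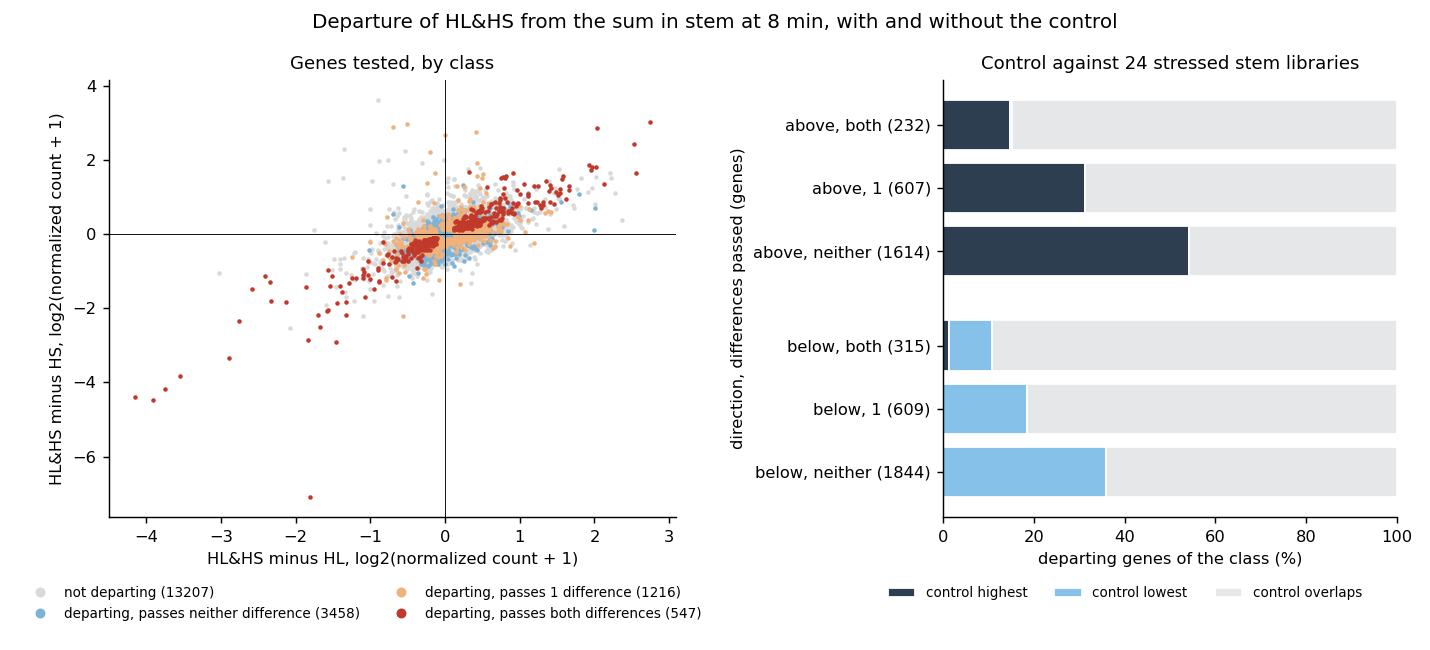
Left, each gene tested is a point at its HL&HS minus HL (x) and HL&HS minus HS (y) difference on the log2(normalized count + 1) scale, coloured by class. Right, bars give the percent of departing genes in each class and direction whose 3 control libraries lay above all 24 stressed stem libraries, below all of them, or overlapped them. The control was outside in 54.1% of the genes above the sum that passed neither difference and in 15.1% of those that passed both.

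The control stood outside all 24 stressed stem libraries in 54.1% of the 1614 genes above the sum that passed neither difference, and in 35.8% of the 1844 below. Among the genes beyond both single stresses these shares were 15.1% above and 10.8% below. Over all genes tested the control was highest in 7.78% and lowest in 5.3%. The 232 genes beyond both single stresses and above the sum took several forms. In 63, HL and HS did not pass against control and HL&HS was higher. In 49, both single stresses were lower than control and HL&HS did not pass. In 29 all 3 stressed groups were lower than control, HL&HS the least. Below the sum, 92 of the 315 had single stresses that did not pass and a lower HL&HS, and 81 had both single stresses higher than control and an HL&HS that did not pass.

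Heat-shock genes held the highest departures. The heat-shock factor gene HSFA2 (AT2G26150), whose protein amplifies and prolongs chaperone expression, had 591, 631 and 647 normalized counts under HL&HS, 79.9, 89.8 and 109 under HL, 77.5, 92.5 and 61.2 under HS, and 82.1, 71.1 and 79.4 in control. Every HL&HS library was high, and the other 3 groups overlapped. The sum gives 90.46 counts, and the departure was 2.77 ± 0.20 (log2 ± SE; limma, adjusted p = 6.76e-14), the highest of all genes named here. HSFA2 also had the heat-shock element, a binding motif of heat-shock factors, in the 300 bases upstream of its annotated start. The motif, GAA, TTC and GAA or TTC, GAA and TTC with 2 free bases between neighbours, was searched on both strands, and it was found upstream of 3 of the 51 genes (5.88%) that were beyond both single stresses and at least 2-fold above the sum. Of all 18369 upstream windows 0.49% held it. The 3 genes are HSFA2, HSP90.1 and DREB2A, and in HSP90.1 the match ends 282 bases before the start, inside an exon of another gene. The stretches around the match are shown for HSFA2 (chr2:11135506-11135578, plus strand) and for DREB2A (chr5:1602011-1602083, plus strand), from the RefSeq TAIR10.1 genome, with the match in capitals. It ends 75 bases before the start of HSFA2 and 151 bases before that of DREB2A.
HSFA2: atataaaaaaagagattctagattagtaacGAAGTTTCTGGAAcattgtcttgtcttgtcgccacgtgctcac
DREB2A: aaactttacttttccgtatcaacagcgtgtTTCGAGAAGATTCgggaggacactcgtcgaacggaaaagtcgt

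Of the 14 heat-shock factor genes tested, 4 departed above the sum (28.6%, against 28.3% of all genes) and none below, and 3 were beyond both single stresses. The median departure of the list was 0.30, against -0.01 over all genes. The class B factors HSFB2A and HSFB2B, which lack the activation domain of class A and can act as repressors, were the others. HSFB2A (AT5G62020) had 212, 217 and 185 counts under HL&HS, 88.5, 71.6 and 86.8 under HL, 111, 113 and 127 under HS, and 113, 111 and 122 in control, a departure of 1.28 ± 0.18 (limma, adjusted p = 5.35e-07). HSFB2B (AT4G11660) had 437, 444 and 422 counts under HL&HS, 248, 178 and 246 under HL, 208, 187 and 180 under HS, and 205, 215 and 206 in control, a departure of 1.09, and 22.4% of its exonic length overlaps other genes on the other strand. In both genes HL&HS was high alone among the 4 groups. None of the 4 HSFA1 genes, which encode the master regulators that act before HSFA2, passed the threshold: HSFA1A averaged 94.9 counts under HL&HS, 93.7 under HL, 90.8 under HS and 122 in control.

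Small heat-shock proteins bind unfolding proteins before other chaperones take them over. Of 16 genes listed, 8 were expressed enough to be tested. Of these 6 departed above the sum and 1 below, and 5 were beyond both single stresses (62.5%, against 2.97% of all genes), with a median departure of 1.5. The loci AT1G59860 and AT1G07400, annotated as HSP20-like chaperones, departed by 2.47 ± 0.29 and 2.3 ± 0.28 (limma, adjusted p = 1.73e-08 and 3.72e-08). AT1G59860 had 181, 183 and 167 counts under HL&HS, 37.1, 21.3 and 33.8 under HL, 39.5, 22.4 and 37 under HS, and 32.3, 31.4 and 28.7 in control. AT1G07400 had 149, 184 and 197 counts under HL&HS, 38.5, 50.2 and 38.3 under HL, 15.2, 34.3 and 24.1 under HS, and 27.9, 29.8 and 27 in control. Of the 4 groups, HL&HS was high alone in either gene, and the others lay far lower. AT1G54050 averaged 341.8 counts under HL&HS, 89.9 under HL, 93.9 under HS and 76.3 in control, a departure of 1.59. AT5G51440 and AT5G37670 were the other members beyond both single stresses, with departures of 1.94 and 1.4. HSP18.2 (AT5G59720) was the member below, with 341 counts under HL&HS, 369 under HL, 335 under HS and 292 in control.

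Among 29 large chaperones and co-chaperones, all of them tested, 16 departed above the sum and 2 below, and 12 were beyond both single stresses (41.4%), all of them above. HSP101 (AT1G74310), the disaggregase needed for acquired heat tolerance, had the smallest p of all genes above the sum. It had 1925, 2143 and 2108 counts under HL&HS, 882, 912 and 917 under HL, 858, 769 and 892 under HS, and 1002, 963 and 939 in control. The sum gives 782.1 counts, and the departure was 1.39 ± 0.07 (limma, adjusted p = 1.64e-17). Both single stresses lay under the control, and every HL&HS library was far above the rest. HSP90.1 (AT5G52640), the heat-inducible cytosolic HSP90, had 1110, 1174 and 1196 counts under HL&HS, 424, 356 and 422 under HL, 488, 472 and 542 under HS, and 532, 539 and 502 in control, a departure of 1.60 ± 0.09 (limma, adjusted p = 2.81e-16). HSP70 (AT3G12580) departed by 1.11 ± 0.08, with 2598, 2471 and 2550 counts under HL&HS, 812, 988 and 976 under HL, 1396, 1401 and 1508 under HS, and 1125, 1115 and 1127 in control. Its groups did not overlap, with HL the lowest and HL&HS the highest.

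Some co-chaperones departed above the sum and others did not. HOP3 (AT4G12400), an HSP70 to HSP90 adaptor, averaged 783.6 counts under HL&HS, 412.1 under HL, 539.9 under HS and 515.6 in control, a departure of 0.86. BAG6 (AT2G46240), which binds HSP70 and calmodulin, and ROF2 (AT5G48570), a peptidyl-prolyl isomerase known to act with HSFA2, departed by 0.56 and 0.53. HOP1 and HOP2 departed by -0.14 and -0.08 and did not pass, and P23-1, an HSP90 co-chaperone, departed below the sum by -0.21. Abundant members departed less: HSP90.2 (AT5G56030) by 0.51 and HSC70-1 (AT5G02500) by 0.24. Chloroplast chaperones differed among themselves: CLPB3 departed by 0.42 without passing either difference, CPHSC70-1 and CPHSC70-2 departed by -0.05 and 0.04 and did not pass, and HSP90.5 departed by -0.20. HSP90.5 still averaged 5423 counts under HL&HS, against 4613 for the mean of HL and HS. The same levels were 6843 and 6148 for CPHSC70-1, and 8079 and 7036 for CPHSC70-2.

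MBF1C (AT3G24500), a transcriptional co-activator needed for heat tolerance, had 849, 988 and 846 counts under HL&HS, 307, 277 and 324 under HL, 366, 288 and 299 under HS, and 356, 271 and 318 in control. Of the 4 groups, HL&HS alone was high, with a departure of 1.55 ± 0.13 (limma, adjusted p = 9.66e-12). Of the exonic length of MBF1C, 25.9% overlaps genes on the other strand. DREB2A (AT5G05410), a dehydration and heat factor that acts on HSFA3, had 60.5, 43.5 and 47.7 counts under HL&HS, 14.3, 15.2 and 16.2 under HL, 16.7, 22.4 and 20.9 under HS, and 10.14 to 22 in control, a departure of 1.36 ± 0.38 (limma, adjusted p = 0.00567). GolS2 (AT1G56600), a galactinol synthase of the raffinose pathway, departed by 2.18, but here the control was the highest: 209, 204 and 267 counts under HL&HS, 113, 181 and 166 under HL, 193, 181 and 180 under HS, and 568, 594 and 529 in control. HL&HS passed against HL and not against HS in this gene. In the list of 10 MBF1, DREB2 and galactinol synthase genes, 7 were tested, 4 departed above the sum, none below, and 2 were beyond both single stresses.

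**Figure D2:**
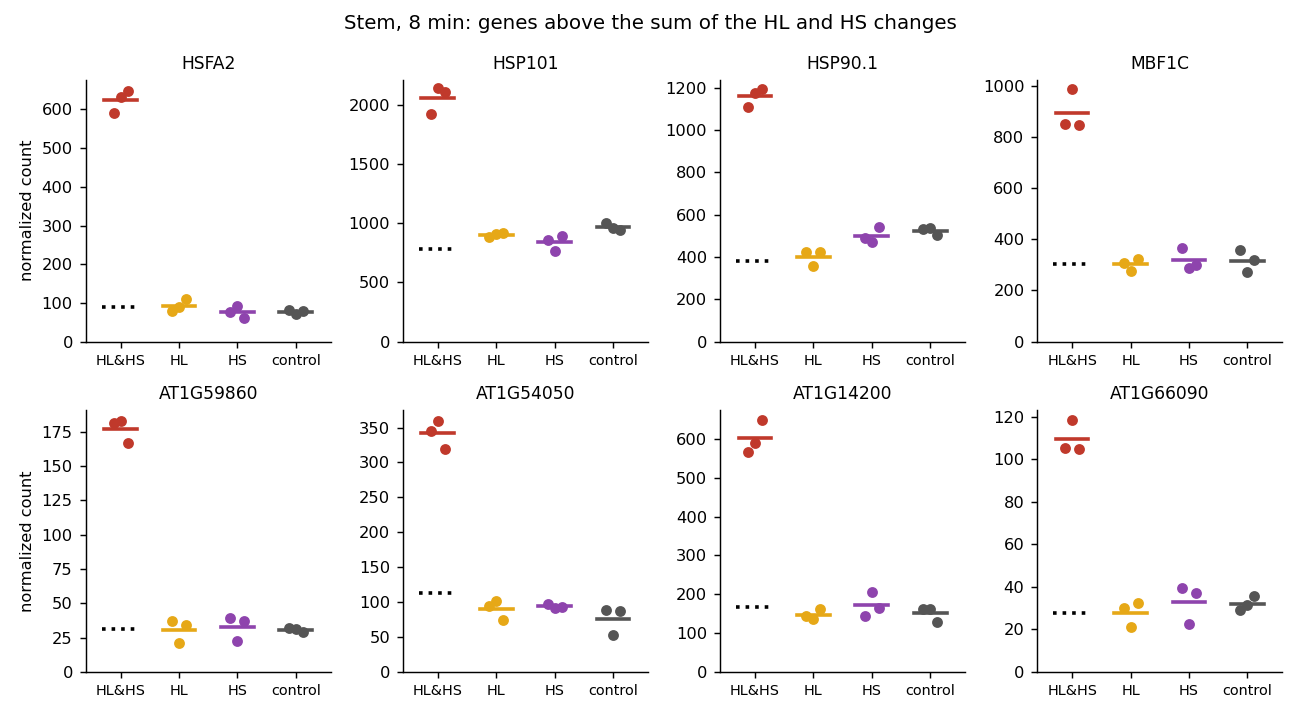
Normalized counts (y, linear from 0) of 8 genes above the sum in the 3 libraries of each group; points are libraries, solid lines are group means and the dotted line in the HL&HS column is the level that the sum gives. In all 8 genes the HL&HS libraries lay above every HL, HS and control library.

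The treated leaves of HL&HS plants express the heat genes far more than the stem does, so the level of leaf transcripts in the stem libraries was measured beside these results. It was read from 210 genes with at least 100 counts in leaf control and at most 5% of that in every stem control library. Their median level was 0.87% to 1.12% of leaf control in the 3 HL&HS libraries, 0.864% to 1.14% under HL, 1.11% to 1.21% under HS, 0.696% to 1.02% under HL+HS, in which both stresses were given to a single leaf, and 1.16% to 1.59% in control. The HL&HS libraries overlapped those of HL, HS and HL+HS and lay under the control. The excess of HL&HS over the mean of HL and HS was 2.54% of the level in the treated leaves for HSFA2, 3.48% for HSP101, 5.11% for MBF1C and 1.15% for AT1G59860. Among other heat genes it ran higher and lower, at 9.84% for HSC70-1, 9.4% for HSFB2B and 7.8% for HSP90.2, and at 0.137% for AT4G25200, with a mean of 2.09 counts in HL&HS stems against 1469 and 1230 in the leaves given high light and heat. HSP21 (AT4G27670) had no count in any HL&HS, HL or HS stem library and 107.4 and 98.5 counts in the treated leaves. The 210 genes could have up to 5% of their leaf level in stem control, so their median is not a measured share of leaf RNA. At 0.87% to 1.12% of its leaf level HSP21 would give fewer than 3 reads, so the absence of counts is not informative. The part of leaf RNA in the result was not tested further.

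Beyond the heat-shock genes, AT1G14200, a RING finger protein gene, had 567, 591 and 649 counts under HL&HS, 143, 137 and 162 under HL, 143, 206 and 166 under HS, and 163, 162 and 128 in control, with 7.89% of its exonic length overlapped on the other strand. Its departure was 1.85 ± 0.15 (limma, adjusted p = 3.44e-12). AT1G66090, annotated as a TIR-NBS disease resistance protein, departed by 1.95 ± 0.32 (limma, adjusted p = 9.02e-06), with 105, 118 and 105 counts under HL&HS and 21.3 to 39.5 in all other libraries. Of the 4 groups, HL&HS alone was high in both genes.

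In a further set either single stress was lower than control and HL&HS was less so. BBX32 (AT3G21150), a B-box protein that dampens light signalling, had 254, 231 and 248 counts under HL&HS, 120, 123 and 128 under HL, 179, 112 and 124 under HS, and 267, 261 and 291 in control. HL&HS lay between the single stresses and control without overlap, and the departure was 1.98 ± 0.17 (limma, adjusted p = 1.21e-11). AT1G13609, a defensin-like gene, had 89.9, 91.5 and 82.7 counts under HL&HS, 42.8, 36.5 and 29.4 under HL, 60.8, 52.2 and 41.8 under HS, and 98.3, 103 and 74.3 in control, a departure of 2.09 ± 0.23. AT2G30766, of unknown function, departed by 1.96 ± 0.17, and 20.5% of its exonic length overlaps other genes on the other strand. ASN1 (AT3G47340), an asparagine synthase that marks low sugar and darkness, departed by 1.85 ± 0.19. It had 153, 135 and 132 counts under HL&HS, 98.5, 108 and 76.5 under HL, 79.1, 83.6 and 113 under HS, and 233, 197 and 233 in control, so that HL&HS lay above the single stresses and under the control, which was again the highest.

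Early stress regulators behaved in different ways. ERF104 (AT5G61600), an ethylene response factor, had 282, 205 and 270 counts under HL&HS, 45.7, 67 and 82.4 under HL, 65.4, 79.1 and 69.2 under HS, and 44, 36.4 and 40.5 in control, a departure of 1.16 ± 0.24 (limma, adjusted p = 0.000217). WRKY33 (AT2G38470), a regulator of defence against fungi, departed by 1.08 ± 0.17, at 383, 366 and 387 counts under HL&HS against 122 to 184 in all other libraries. ZAT6 (AT5G04340), a zinc-finger gene, had 43.4, 54 and 46.1 counts under HL&HS, 8.57, 6.09 and 7.36 under HL, 22.8, 8.96 and 14.5 under HS, and 5.87, 6.62 and 11.8 in control, a departure of 1.74 on low counts. The zinc-finger genes RHL41 (ZAT12, AT5G59820) and STZ (ZAT10, AT1G27730), both markers of reactive oxygen and high light, rose under HL&HS to about the level of the sum. RHL41 had 149, 154 and 132 counts under HL&HS, 32.8, 44.2 and 50 under HL, 74.5, 52.2 and 61.2 under HS, and 33.7, 16.5 and 13.5 in control. HL&HS was the highest group, but the sum gives 129.1 counts and the departure was 0.16, with a 95% interval of -0.49 to 0.82 (limma, adjusted p = 0.751). STZ averaged 221.8 ± 21.6 counts under HL&HS (SD, n = 3) where the sum gives 211.2, a departure of 0.07 with a 95% interval of -0.34 to 0.47. RBOHD (AT5G47910), the NADPH oxidase that makes the reactive oxygen of the travelling signal, departed by 0.32 ± 0.06 (limma, adjusted p = 0.000146), with 1305, 1365 and 1323 counts under HL&HS, 1022, 1014 and 1049 under HL, 1070, 1042 and 1160 under HS, and 1030, 1056 and 1076 in control.

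ORA47 and WRKY40 departed below the sum although HL&HS was far above the control. ORA47 (AT1G74930), an ERF factor of the wound response, had 132, 157 and 119 counts under HL&HS, 32.8, 28.9 and 38.3 under HL, 149, 115 and 114 under HS, and 8.8, 8.27 and 11.8 in control. The HL&HS and HS libraries overlapped, whereas the sum gives 407.9 counts, and the departure was -1.59 ± 0.32 (limma, adjusted p = 0.000188). WRKY40 (AT1G80840) averaged 123.9 counts under HL&HS, 29.9 under HL, 76.6 under HS and 7.53 in control, a departure of -1.18, although HL&HS was higher than either single stress. In all, 514 departing genes had a difference from a single stress that passed against the direction of the departure.

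Several of the lowest departures were in salicylic acid genes. A list of 22 such genes, put together after the lowest departures had been seen, had 21 tested members. Of these, 12 departed below and 2 above (66.7%), and 9 were beyond both single stresses, all below (42.9%). The median departure of the list was -0.43. The same data led to the list, so its shares are not read against those of all genes, of which 28.3% departed. LURP1 (AT2G14560), a gene needed for defence against an oomycete, had the lowest departure among the genes at least 2-fold below the sum in which HL&HS passed both differences without overlap, at a mean of at least 50. It had 24.8, 45 and 27 counts under HL&HS, 178, 268 and 212 under HL, 138, 169 and 183 under HS, and 210, 159 and 139 in control. Of the 4 groups, HL&HS was low alone and the others overlapped, with a departure of -2.72 ± 0.25 (limma, adjusted p = 3.36e-11). PCC1 (AT3G22231), a pathogen and clock responsive gene, had 274, 259 and 250 counts under HL&HS, 681, 938 and 750 under HL, 999, 1082 and 1202 under HS, and 725, 786 and 750 in control, a departure of -2.12 ± 0.11 (limma, adjusted p = 1.64e-17). Again HL&HS was low alone among the 4 groups, and HS was high.

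NIMIN1 (AT1G02450), whose protein binds the salicylic acid co-activator NPR1, had 46.5, 52.5 and 63.6 counts under HL&HS, 123, 111 and 115 under HL, 109, 143 and 98.2 under HS, and 82.1, 43 and 52.4 in control. Here the single stresses were above control and HL&HS overlapped it, with a departure of -2.10 ± 0.24 (limma, adjusted p = 6.38e-09). BGL2 (PR2, AT3G57260), a secreted glucanase, had 7.75, 10.5 and 19.1 counts under HL&HS, 24.3, 41.1 and 38.3 under HL, 69.9, 94 and 127 under HS, and 88, 64.5 and 43.9 in control, a departure of -2.03 ± 0.35. HL&HS was the lowest of the 4 groups without overlap. PR5 (AT1G75040), another pathogenesis-related protein, departed by -0.97 ± 0.10, with 611, 550 and 562 counts under HL&HS against 688 to 1034 in the HL, HS and control libraries. DMR6 (AT5G24530), an enzyme that breaks down salicylic acid, departed by -1.27 ± 0.12 and WRKY54 (AT2G40750) by -1.49 ± 0.24. Genes of salicylic acid synthesis did not follow: ICS1 (AT1G74710) averaged 280 counts under HL&HS, 247 under HL, 246 under HS and 275 in control, and departed above the sum by 0.34, and PBS3 (AT5G13320) likewise by 0.34. PR1 was not expressed enough to be tested.

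AT3G22235, a cysteine-rich membrane protein gene close to PCC1, departed by -2.20 ± 0.23 (limma, adjusted p = 1.31e-09). It had 48.1, 43.5 and 39.8 counts under HL&HS, 114, 142 and 83.9 under HL, 193, 221 and 187 under HS, and 93.9, 136 and 99.7 in control, the same order of groups as PCC1. The genes are near-identical in part to others: 67.5% of the 50-base windows of AT3G22235 and 27.8% of those of PCC1 occur in other genes. The windows of PCC1 are shared most with AT3G22235, and those of AT3G22235 most with AT3G22240, so reads may be split among these genes. Their upstream sequences are shown because they share an unbroken run of 105 identical bases with several copies of TGACG, a motif bound by TGA factors, the partners of NPR1. Capitals mark each TGACG on either strand. The windows are chr3:7846834-7847133 for PCC1 and chr3:7855815-7856114 for AT3G22235, both on the minus strand of RefSeq TAIR10.1.
PCC1: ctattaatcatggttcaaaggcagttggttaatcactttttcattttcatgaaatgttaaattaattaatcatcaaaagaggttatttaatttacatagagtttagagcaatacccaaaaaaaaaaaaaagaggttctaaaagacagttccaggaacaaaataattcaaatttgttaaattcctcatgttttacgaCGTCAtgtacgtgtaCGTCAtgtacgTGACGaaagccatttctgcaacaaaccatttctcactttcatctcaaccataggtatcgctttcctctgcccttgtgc
AT3G22235: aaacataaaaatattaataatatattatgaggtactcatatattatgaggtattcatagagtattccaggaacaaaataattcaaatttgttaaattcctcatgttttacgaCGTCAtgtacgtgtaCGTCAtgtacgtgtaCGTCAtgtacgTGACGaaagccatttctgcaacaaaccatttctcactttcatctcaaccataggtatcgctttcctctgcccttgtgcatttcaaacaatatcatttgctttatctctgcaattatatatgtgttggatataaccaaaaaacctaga
TGACG was found in 13 of the 49 windows of genes beyond both single stresses and at least 2-fold below the sum, against 21.8% of all windows, so its share was near the background.

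Other genes at the low end were AT5G03350, AT4G30650 and AT5G10760. AT5G03350, a legume lectin gene, had 381, 373 and 291 counts under HL&HS, 590, 741 and 597 under HL, 759, 937 and 837 under HS, and 459, 346 and 375 in control, a departure of -1.99 ± 0.13 (limma, adjusted p = 1.87e-14). AT4G30650, a low temperature and salt responsive gene, departed by -1.84 ± 0.18, at 85.3, 118 and 84.3 counts under HL&HS, 153, 212 and 149 under HL, 161, 193 and 138 under HS, and 85.1, 76.1 and 79.4 in control. In both genes the single stresses were high and HL&HS overlapped control. AT5G10760, an aspartyl protease gene, had 29.5, 43.5 and 28.6 counts under HL&HS against 52.4 to 130 in the HL, HS and control libraries, a departure of -1.83 ± 0.27.

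**Figure D3:**
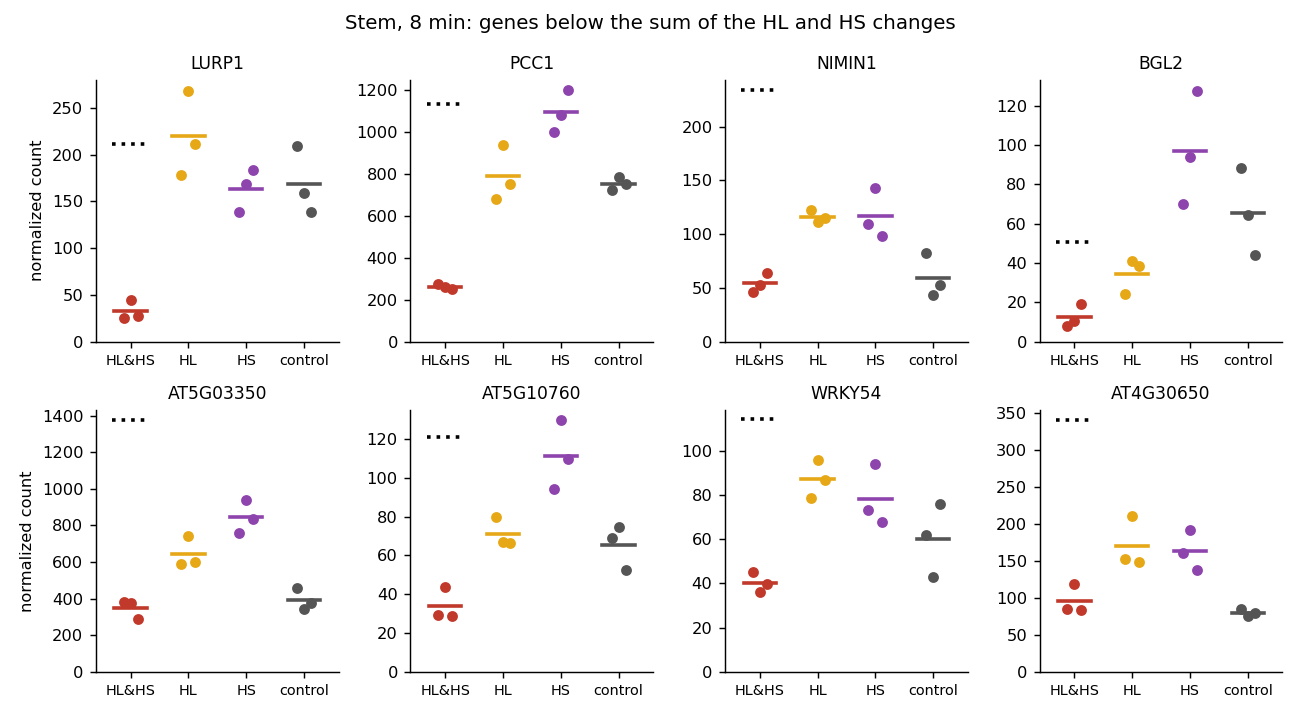
Normalized counts (y, linear from 0) of 8 genes below the sum in the 3 libraries of each group; points are libraries, solid lines are group means and the dotted line in the HL&HS column is the level that the sum gives. HL&HS lay below every HL and HS library in all 8, and near control in NIMIN1, AT5G03350 and AT4G30650.

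Of 20 jasmonate genes tested, 6 departed below the sum and none above (30%, against 28.3% of all genes), with 2 beyond both single stresses. OPR3 (AT2G06050), an enzyme of jasmonate synthesis, had 288, 270 and 274 counts under HL&HS, 405, 393 and 365 under HL, 356, 366 and 362 under HS, and 238, 260 and 258 in control, a departure of -1.0 ± 0.09 (limma, adjusted p = 3.36e-11). VSP2 (AT5G24770), a storage protein induced by jasmonate, departed by -0.81 ± 0.09, with HL alone high at 1944, 1813 and 1945 counts and HL&HS at 1149, 1071 and 989. JAZ7 had 1.5 to 9.54 counts under HL&HS and 0 to 4.4 in control, too few reads for its departure to be read.

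The gene with the smallest p of all, AT5G37940, a zinc-binding dehydrogenase gene, departed by -1.40 ± 0.06 (limma, adjusted p = 1.72e-20). Yet it had 2063, 2174 and 2139 counts under HL&HS, 2397, 2125 and 2376 under HL, 2577, 2607 and 2622 under HS, and 1087, 1084 and 1036 in control. All stressed groups were far above the control, and HL&HS passed against HS but not against HL (adjusted p = 0.0743). Of its 50-base windows 24.4% occur in other genes, most often in AT5G38000. Of its 5 tested neighbours, listed after this was seen, 3 passed both differences, 1 passed 1 of them and 1 did not depart. AT5G37970, a methyltransferase gene, had 318, 324 and 283 counts under HL&HS, 571, 571 and 586 under HL, 582, 582 and 576 under HS, and 309, 341 and 346 in control. HL&HS overlapped control there and both single stresses stood above, a departure of -1.71 ± 0.08 (limma, adjusted p = 1.99e-18). AT5G38000 and AT5G37980 departed by -1.35 and -0.86.

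Departures that rest on the control were of another kind. BGLU45 (AT1G61810), a glucosidase that acts on monolignol glucosides, departed by 1.53 ± 0.09 (limma, adjusted p = 3.34e-16). It had 574, 604 and 655 counts under HL&HS, 547, 579 and 584 under HL, 666, 692 and 583 under HS, and 1772, 1774 and 1693 in control. The 3 stressed groups overlapped, and the control stood alone. CLC-B (AT3G27170), a chloride channel gene with 20.8% of its exons overlapped on the other strand, and AT5G41761 departed by 1.68 and 1.64 in the same manner. Below the sum, PORB (AT4G27440), which makes chlorophyllide, had 1085, 1084 and 1071 counts under HL&HS, 939, 1204 and 1077 under HL, 1098, 1161 and 1331 under HS, and 456, 447 and 497 in control, a departure of -1.34. AT5G61590, an ERF-type gene, departed by -1.32 with 68.2 to 75 counts under HL&HS against 31.4 to 47.3 in control. AT4G29390, a ribosomal S30 gene, departed by -1.26, but 1 control library had 208 counts and the others 69.5 and 82.8, 67% of its exonic length lies opposite another gene, and the call was lost in 6 of 19 alternatives (adjusted p = 0.0545 to 0.148).

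Genes of cellulose and lignin synthesis, the main products of the thickening stem, were often of this kind, and in 18 of 28 tested the control lay outside all stressed libraries. Of the 28, 19 departed above the sum and none below (67.9%, against 28.3% of all genes), with a median of 0.47, and none of the 19 passed either difference in that direction. Against control, 20 of the 28 were lower under HL (43.7% of all genes passed in either direction) and 19 under HS (34.4%). CESA4 (AT5G44030), a cellulose synthase of the secondary wall, had 6422, 6533 and 6514 counts under HL&HS, 7321, 6458 and 6893 under HL, 9222, 8977 and 9114 under HS, and 16517, 17551 and 18258 in control. HL&HS and HL overlapped, both lay under HS, and all 3 were far under the control. OMT1 and PAL1, of lignin and phenylpropanoid synthesis, departed by 0.84 and 0.78 with the control again the highest. The summed level of 9 markers of secondary wall and xylem was 32880 to 33100 in the HL&HS libraries, 33580 to 38590 under HL, 43470 to 44810 under HS and 67480 to 71740 in control. Whether the controls held other proportions of stem tissue was not tested.

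Of 18 clock genes tested, 10 departed above the sum and 2 below (66.7%, against 28.3% of all genes), with a median of 0.49, and 3 were beyond both single stresses (16.7%, against 2.97%). LHY (AT1G01060), a morning gene of the clock, had 8539, 8118 and 8268 counts under HL&HS, 7175, 7961 and 7552 under HL, 6509, 6655 and 6854 under HS, and 12090, 12696 and 12811 in control. HL&HS lay above the single stresses by little and far under the control, and the departure was 1.05 ± 0.06 (limma, adjusted p = 2.04e-17). CCA1 (AT2G46830), its partner, departed by 0.97 ± 0.06, with 5304, 5338 and 5663 counts under HL&HS, 4639 to 4818 under HL, 4523 to 4867 under HS, and 8119 to 8137 in control. RVE1 was the other member beyond both single stresses. The control was collected at 0 min and the stressed stems at 8 min, and time of collection cannot be told apart from stress in these genes.

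**Figure D4:**
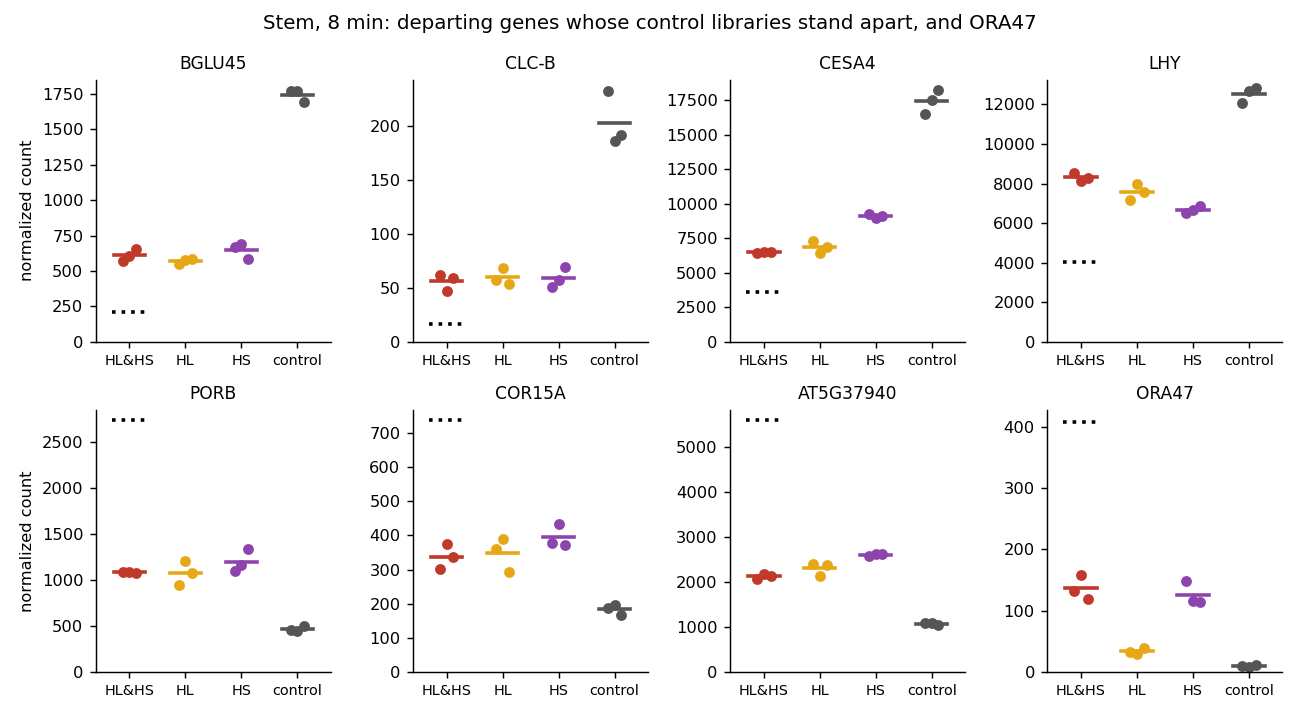
Normalized counts (y, linear from 0) in the 3 libraries of each group; points are libraries, solid lines are group means and the dotted line in the HL&HS column is the level that the sum gives. In BGLU45, CLC-B, CESA4, LHY, PORB, COR15A and AT5G37940 the control lay outside all other libraries, while in ORA47 HL&HS matched HS.

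The remaining lists were small in effect or mixed. In the unfolded protein response of the endoplasmic reticulum, 11 of 20 genes departed below the sum and 3 above (70%, against 28.3% of all genes), with a median of -0.29, and no member reached 2-fold. SDF2 (AT2G25110), part of a folding complex, had 1021, 1008 and 1028 counts under HL&HS, 1198, 1169 and 1143 under HL, 1121, 1203 and 1184 under HS, and 975, 903 and 927 in control, a departure of -0.52 ± 0.06. It and ERDJ3B were beyond both single stresses below the sum. NAC062 (AT3G49530), a membrane-bound factor of this response, was above, by 0.25. Of 24 antenna and Rubisco genes 6 departed below and none above (25%), by at most 0.46 in size, and none was beyond both single stresses. Photoprotection and flavonoid genes had 3 above and 4 below of 12 (58.3%). ELIP1 (AT3G22840), an early light-induced protein gene, was among those above, with 321, 316 and 296 counts under HL&HS, 320, 350 and 288 under HL, 213, 278 and 266 under HS, and 431, 438 and 456 in control, so HL&HS overlapped HL.

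The share of all genes that departed was 28.3%. Rapid ERF and DREB1 regulators had 2 above and 3 below of 10 (50%), WRKY factors 2 and 3 of 13 (38.5%), and abscisic acid and cold genes 7 and 3 of 18 (55.6%). COR15A (AT2G42540), a cold-regulated chloroplast protein gene, departed by -1.14 with the control lowest. Touch and calmodulin-like genes had 3 above and none below of 9 (33.3%). TCH4 (AT5G57560), a wall-loosening xyloglucan enzyme gene, had 1029, 1102 and 1051 counts under HL&HS, 463, 495 and 511 under HL, 529, 443 and 525 under HS, and 299, 283 and 285 in control, a departure of 0.33 ± 0.09. Zinc-finger and reactive oxygen genes had 5 above and 5 below of 17 (58.8%), glucosinolate genes 2 and 4 of 11 (54.5%), auxin genes 2 and 2 of 13 (30.8%), and low sugar genes 1 and 3 of 11 (36.4%). The shares of the WRKY, touch, auxin and low sugar lists were near that of all genes. Cuticular wax genes had 5 below of 11 (45.5%), ER body and jacalin lectin genes 3 below of 3 and mitochondrial retrograde genes 1 below of 7 (14.3%), with none above.

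**Figure D5:**
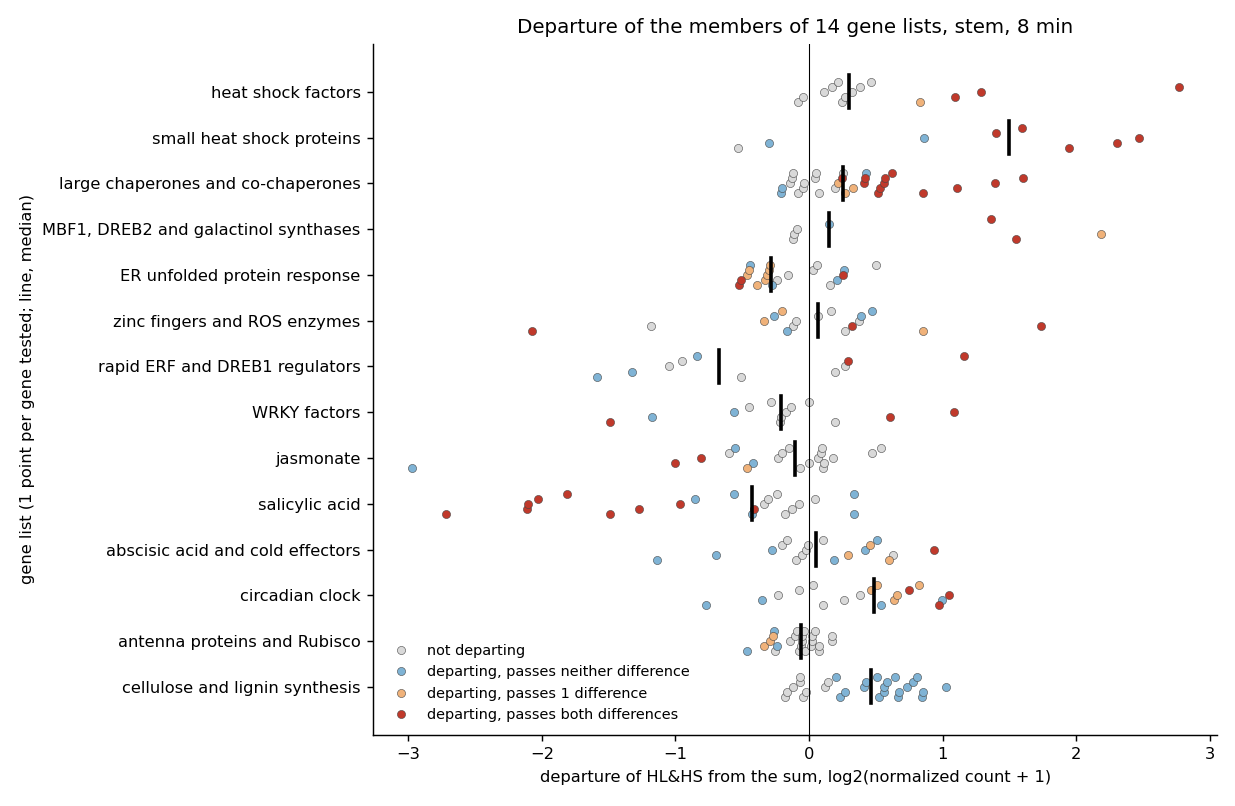
Departure of HL&HS from the sum (x, log2(normalized count + 1)) for each tested member of 14 gene lists (rows); points are genes coloured by class and black lines are list medians. Small heat-shock proteins had a median of 1.5 and salicylic acid genes, listed after the lowest departures were seen, -0.43; all 19 departing cellulose and lignin genes passed neither difference in that direction.

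Some low departures came with few reads. APX2 (AT3G09640), an ascorbate peroxidase marker of high light, had 4.65, 7.5 and 4.77 counts under HL&HS, 30, 21.3 and 32.4 under HL, 16.7, 17.9 and 35.4 under HS, and 27.9, 28.1 and 15.2 in control, where 3 reads are worth 4.28 to 5.07 counts. HL&HS was the lowest of these groups without overlap, at or just over that floor. APX2 was low under HL+HS at 8 min as well, with a mean of 1.54 counts. SAG12 (AT5G45890), a cysteine protease used as a marker of senescence, had the lowest fitted departure of all genes with a mean of at least 50, and was picked out for that after its values were seen. It had 0, 3 and 0 counts under HL&HS, 11.4, 1.52 and 4.41 under HL, 151, 319 and 208 under HS, and 4.4, 14.9 and 20.3 in control. HS alone was high, and HL&HS, at or under the floor, overlapped HL, so no fold is given. The pollen genes PGA4 and VGD1 were at 4.65, 0 and 0 counts under HL&HS and at 16.2 to 64.5 in the HL, HS and control libraries. They were low under HL+HS at 8 min as well, with means of 1.62 and 1.60 counts. The summed level of 9 pollen markers was 14.3 to 29.5 counts in the HL&HS libraries, with 3 to 7 of them at 0, 119.2 to 188.8 under HL, 85.2 to 173.1 under HS and 167.2 to 247.9 in control. The sums of 7 floral and meristem markers, 3290 to 3418 under HL&HS, 3354 to 3544 under HL, 3338 to 3497 under HS and 3367 to 3627 in control, were nearly all STM, a meristem gene. Of the 5 tested, the floral organ genes moved: 4 were lower under HS than in control, and the median departure was 1.2, with AP1 alone past the threshold, at 1.1. AP1 (AT1G69120), a floral identity gene, had 55.8, 64.5 and 60.4 counts under HL&HS, 51.4, 104 and 67.7 under HL, 33.5, 17.9 and 19.3 under HS, and 68.9, 46.3 and 64.2 in control. HS was low alone of the 4 groups, and AP1 averaged 22.4 counts under HL+HS at 8 min. The part of pollen or floral tissue in the departures of other genes was not tested.

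Setting HL&HS against HL+HS removes the control and the single stresses from the comparison. At 8 min 6971 genes (37.8%) differed, 3074 (16.7%) higher and 3897 (21.1%) lower under HL&HS, while edgeR gave 3133 and 2615. Of the 232 genes above the sum and beyond both single stresses, 176 (75.9%) were also higher under HL&HS than under HL+HS, and of the 315 below, 243 (77.1%) were also lower. They were chosen with the same HL&HS libraries, which raises these shares, so they are not read against those of all genes. HSFA2 averaged 623.1 counts under HL&HS and 162.6 under HL+HS, a difference of 1.94 ± 0.14 (limma, adjusted p = 3.05e-14). LURP1 averaged 32.3 counts under HL&HS and 86.3 under HL+HS, a difference of -1.44 ± 0.17. NIMIN1 showed no such gap, at 54.2 counts under HL&HS and 58.3 under HL+HS (difference -0.11, adjusted p = 0.634, limma). BGL2, AT5G03350, AT5G10760, DMR6 and PR5 did not pass either, with differences of -0.50, -0.12, -0.30, -0.04 and -0.14. PCC1, AT3G22235, AT4G30650 and WRKY54 passed, at -0.82, -1.05, -1.08 and -0.49. With HL+HS in place of HL&HS, the departure was -1.99 for NIMIN1, -1.53 for BGL2, -1.3 for PCC1 and -1.29 for LURP1. It was 0.83 for HSFA2, 0.73 for MBF1C, 0.7 for AT1G59860, 0.5 for HSP101 and HSFB2B, and 0.44 for HSFB2A. Other heat genes were at 0.28 for AT1G07400, 0.25 for HSP90.1, -0.06 for AT1G54050 and -0.2 for HSP70. AT1G14200 departed by 0.66. Means under HL+HS were 506.6 counts for MBF1C, 287.2 for HSFB2B, 262.1 for AT1G14200 and 461.2 for PCC1.

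The departure at 8 min differed from that at 2 min in 646 genes (3.51%), 251 (1.36%) higher and 395 (2.14%) lower at 8 min. The control cancels in this difference, but the 2 min stem libraries were deeper, at 37036697 to 47559552 reads, so depth and time cannot be told apart. Leaving out replicate 1 of HL&HS at 2 min lowered the count to 391. Of the genes beyond both single stresses, 80 of those above (34.5%) and 88 of those below (27.9%) had an 8 min minus 2 min difference in the same direction, but the same 8 min libraries chose them, so these shares are not read against those of all genes. HSFA2 departed by 2.77 at 8 min and 0.50 at 2 min, where it averaged 82.6 counts under HL&HS, 57.3 under HL and 78.8 under HS. LURP1 departed by -2.72 at 8 min and 0.43 at 2 min. PCC1 departed by -2.12 at 8 min and -1.30 at 2 min, and NIMIN1 by -2.10 and -1.42.

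Additivity depends on the scale. When normalized counts were summed without logarithms, 5299 genes departed, and 4994 were the same genes in the same direction, 95.7% of the log2 list and 94.2% of the linear list. The sign of the difference of group means differed between the scales in 10 of the 5221 departing genes. The 16 genes named by size of departure, 8 above and 8 below, all kept direction and threshold in the 19 alternatives computed for each.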

How the data were processed

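RNA sequencing of stem (systemic) and treated leaf gave a table of normalized counts for 32833 genes, a signal in which, as deposited by the authors, each library's counts are divided by a size factor. FastQC 0.11.7, STAR 2.4.0.1, DESeq2 1.20.0 and TAIR10 are named per the submitters' processing notes; the counting program and its strand setting are not given in the sources used here. Whole reads were recovered from the steps of the values for 100% of values (tolerance 1e-06 reads), and edgeR on these reads called 4081 departing genes. Motifs were searched in the 300 bases upstream of RefSeq TAIR10.1 gene starts, a window set in place of the one planned; 18370 genes matched.

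The fit used limma 3.58.1 in R 4.3.3 on log2(normalized count + 1), with lmFit and eBayes with trend, over all 27 stem libraries and the 18428 genes with a mean of at least 10. Fold changes on this scale understate the change of low genes. P-values are two-sided and Benjamini-Hochberg adjusted over all genes tested, with a threshold of 0.05. Groups came from the titles. The replicates of a group differed by more than sampling noise (chi-square per gene 1.36 to 4.98), so none was merged. The floor of 3 reads, 4.28 to 5.07 normalized counts in the 12 libraries, covers counting error only. Depths were 11222205 to 12932588 reads. Members, gene lists and motifs were chosen with earlier results of these data known. The genes named are the 8 highest and 8 lowest departures with a mean of at least 50 that are at least 2-fold, beyond both single stresses and without overlap; the 3 highest and 3 lowest in which neither difference passes in either direction; the smallest p in each direction; up to 4 called members per list by smallest p; and HSFA2, HSP101, HSP70, ZAT12, ZAT10, ELIP1 and APX2. Others named, such as ZAT6, HSFA1A, BAG6 and SAG12, were chosen after their values were seen. Alternatives were a pseudocount of 0.1, no filter, rescaling, the compared groups only, edgeR 4.0.16 with TMM, DESeq2 1.42.0, a replicate block, the linear scale and leaving out each replicate. The code was tested on simulated data. Figures were drawn with matplotlib 3.10.9.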

Additional observations from a re-analysis of the deposited data

Results flagged for a closer look

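The departure differed between 8 and 2 min in 646 genes and between HL&HS and HL+HS at 8 min in 6971 genes by tests of the difference itself (limma, Benjamini-Hochberg adjusted p under 0.05). Among the named genes the differences of at least 2-fold are given next, leaving out 4 genes with a library at or under the highest floor of 3 reads (JAZ7, VGD1, PGA4 and APX2), whose fitted differences depend on the pseudocount. The departure at 8 min minus that at 2 min was 2.38 for AT5G51440, 2.35 for AT1G07400, 2.29 for AT1G59860, 2.27 for HSFA2, 1.66 for AT1G54050, 1.37 for HSP90.1 and 1.07 for HSP101, all heat-shock genes. It was 1.37 for ASN1, 1.2 for ERF104, 1.15 for CLC-B and 1.02 for AT1G14200. It was -3.15 for LURP1, -1.5 for BGL2, -1.11 for AT3G22235 and -1 for WRKY54, genes of the salicylic acid group or next to PCC1. It was -2.7 for JAL23, -1.63 for VSP2, -1.59 for AT4G29390 and -1.42 for BGLU18. The 2 min libraries were deeper, and the part of depth was not tested.

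Between HL&HS and HL+HS, 7 of the 12 positive differences were in heat genes. The named genes were chosen in part from heat lists and with the same HL&HS libraries. That choice sets part of this count, so it is not read as a share. The difference was 2.02 for AT1G07400, 1.94 for HSFA2, 1.77 for AT1G59860, 1.65 for AT1G54050, 1.35 for HSP90.1, 1.3 for HSP70 and 1.25 for AT5G51440. It was 1.88 for AT1G66090, 1.4 for AP1, 1.2 for AT1G14200, 1.17 for WRKY33 and 1.14 for BBX32. It was -2.23 for AT5G37970, -1.44 for LURP1, -1.14 for AT5G38000, -1.08 for AT4G30650 and -1.05 for AT3G22235.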

How the results depend on the processing

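The count of 5221 departing genes ranged from 4701 to 5128 when each replicate was left out, that of at least 2-fold departures from 380 to 425 and that of genes beyond both single stresses from 434 to 566. Likewise HL&HS minus HL ranged from 1577 to 2433, HL&HS minus HS from 2570 to 2836, HL&HS minus HL+HS from 6096 to 6722, and the difference of 8 and 2 min from 391 to 931, the lowest without replicate 1 of HL&HS at 2 min. Without a filter 638 genes departed at least 2-fold. With the compared groups only, 3774 genes departed, 303 were beyond both single stresses, 945 differed from HL and 2184 from HS. Departing genes numbered 3980 with DESeq2 and 4081 with edgeR. With edgeR 350 genes were beyond both single stresses, 200 above and 150 below; it gave 921 higher and 550 lower against HL and 1224 higher and 991 lower against HS. Judged by the differences from HL and HS alone, with no departure required, 964 genes passed. The cause of these changes was not tested, except that fitting fewer groups leaves fewer libraries to estimate the spread. Same-numbered replicates did not deviate together (r -0.1 to 0.0879 over 18 pairs), so the numbers give no pairing; a replicate block gave 5193 departing genes. Of the values of named genes under the alternatives, 2077 kept direction and threshold, 70 lost the threshold and none reversed. The depth limits genes near the floor of 3 reads, such as APX2 and JAZ7.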
